A study of Mus musculus with 2 samples.

Results

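Of the 59175 LSD1 peaks called in mouse primary brown adipocytes, 629 (1.06%) lay away from the starts of protein-coding transcripts and yet in sequence as rich in CpG dinucleotides as a CpG island. A peak was taken as such when its midpoint lay more than 2.5 kb from every protein-coding transcript start of the GENCODE M21 annotation, and when its whole sequence had a GC content of at least 55% and an observed over expected CpG ratio of at least 0.6. Peak scores played no part in the choice. Of the remaining peaks, 41274 were distal but poorer in GC or CpG, 7533 were CpG-rich and within 2.5 kb of a start, and 9739 were within 2.5 kb of a start and not CpG-rich. These 629 regions are called distal CpG-rich peaks here.

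The peaks come from chromatin immunoprecipitation and sequencing of LSD1 in differentiated primary brown adipocytes, with 1 LSD1 library and 1 input library and no replicate. Both libraries carry the label Control and strain background C57BL/6 N. Cells of passage 2 to 3 were kept on collagen in medium with 20% serum, taken through 10 days of differentiation and fixed for 5 min, and the antibody was made in the submitters' laboratory. The adipogenic mixture held rosiglitazone and dexamethasone at 1 µM each, isobutylmethylxanthine at 500 µM, insulin at 850 nM, indomethacin at 125 nM and T3 at 1 nM. The list gives a position and a score for each peak and holds no read counts, which leaves the depth unknown. The score was computed by the authors, its unit is unstated, and it serves below only to order and describe peaks of this list. With 1 library there was no test, the variation between cultures is unknown, and 95% Wilson intervals cover counting error only. A peak list holds no expression values, so the labelled cell type was not checked against markers.

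LSD1, the product of Kdm1a, is a flavin-dependent demethylase that takes methyl groups off lysine 4 of histone H3 and acts in complexes with histone deacetylases and the CoREST corepressors. CpG dinucleotides are scarce in most of the mammalian genome because methylated cytosine mutates easily, and the unmethylated stretches in which they persist are known as CpG islands. Most islands overlie promoters of protein-coding genes. Those that do not, known as orphan islands, include promoters of noncoding transcripts, alternative promoters, exons of developmental genes and regulatory elements without an annotated transcript.

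The sequences below show what these regions look like. The first group holds the central 240 bases of some of the highest-scoring distal CpG-rich peaks with little repeated sequence and no untranslated region in the window, from intergenic sequence, from the start of a long noncoding RNA (lncRNA), from coding exons and from a microRNA gene. The last line of that group is the centre of a high-scoring distal peak outside the CpG-rich set. All are from GRCm38.p6, the assembly known as mm10, plus strand, and capitals mark CpG dinucleotides.
Intergenic, upstream of Cldn9, chr17:23699857-23700096: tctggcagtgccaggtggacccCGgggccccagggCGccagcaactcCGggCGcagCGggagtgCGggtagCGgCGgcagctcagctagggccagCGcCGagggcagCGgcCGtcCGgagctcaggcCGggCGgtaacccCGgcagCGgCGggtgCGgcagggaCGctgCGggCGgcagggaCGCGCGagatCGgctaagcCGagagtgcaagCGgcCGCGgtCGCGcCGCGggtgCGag
lncRNA start, Dleu2, chr14:61682526-61682765: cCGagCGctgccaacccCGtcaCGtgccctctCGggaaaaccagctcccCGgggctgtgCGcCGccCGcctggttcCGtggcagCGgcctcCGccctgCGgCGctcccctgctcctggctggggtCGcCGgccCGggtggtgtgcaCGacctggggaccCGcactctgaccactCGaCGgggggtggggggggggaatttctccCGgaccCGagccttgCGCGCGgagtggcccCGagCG
Coding exon, Nova2, chr7:18957761-18958000: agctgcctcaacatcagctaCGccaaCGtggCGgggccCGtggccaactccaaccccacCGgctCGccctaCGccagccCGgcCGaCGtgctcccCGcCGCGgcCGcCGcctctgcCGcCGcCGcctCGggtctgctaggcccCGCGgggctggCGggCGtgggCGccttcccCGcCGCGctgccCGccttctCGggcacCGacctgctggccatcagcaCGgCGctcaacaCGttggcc
Coding exon, Snx20, chr8:88627381-88627620: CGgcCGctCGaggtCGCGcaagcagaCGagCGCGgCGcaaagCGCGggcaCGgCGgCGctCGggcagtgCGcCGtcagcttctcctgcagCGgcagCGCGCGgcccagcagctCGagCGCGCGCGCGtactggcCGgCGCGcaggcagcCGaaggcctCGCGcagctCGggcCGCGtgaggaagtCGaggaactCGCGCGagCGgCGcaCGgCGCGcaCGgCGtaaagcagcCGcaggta
microRNA gene, Mir212, chr11:75173193-75173432: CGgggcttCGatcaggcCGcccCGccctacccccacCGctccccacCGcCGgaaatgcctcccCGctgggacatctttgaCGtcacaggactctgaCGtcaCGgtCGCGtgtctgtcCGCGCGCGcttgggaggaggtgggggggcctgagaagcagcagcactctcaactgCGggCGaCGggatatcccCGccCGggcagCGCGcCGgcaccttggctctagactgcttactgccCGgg
Outside the CpG-rich set, downstream of Axin2, chr11:109011593-109011832: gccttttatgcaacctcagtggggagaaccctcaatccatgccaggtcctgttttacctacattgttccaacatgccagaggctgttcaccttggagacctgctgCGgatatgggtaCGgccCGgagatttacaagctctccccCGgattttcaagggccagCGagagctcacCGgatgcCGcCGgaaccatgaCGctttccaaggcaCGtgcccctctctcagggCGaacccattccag
The CpG-rich windows held between 26 and 48 CpG dinucleotides in 240 bases, against 11 in the window downstream of Axin2. Over the whole peak, the intergenic peak upstream of Cldn9 had a GC content of 59.6% and a CpG ratio of 0.80, and the peak downstream of Axin2 54% and 0.52. The next sequence shows a gene transcribed by RNA polymerase III under a distal CpG-rich peak, minus strand, with the gene in capitals and flanking bases in lower case.
n-TRtct2, tRNA gene, chr3:122292888-122293072: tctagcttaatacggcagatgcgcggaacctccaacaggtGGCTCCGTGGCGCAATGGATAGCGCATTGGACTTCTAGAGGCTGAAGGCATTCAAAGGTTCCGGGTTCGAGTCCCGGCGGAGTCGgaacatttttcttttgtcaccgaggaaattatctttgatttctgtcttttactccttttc
The arginine tRNA gene n-TRtct2 stands in nearly unique sequence, since 0.591% of the 32-base words of its peak occur elsewhere in the genome.

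Distal CpG-rich peaks had higher scores than other distal peaks. Their median score was 188 (quartiles 109 and 373), against 101 (84.2 and 141) for other distal peaks. CpG-rich peaks near a start scored higher still, with a median of 317 (163 and 570). Of all peaks, 10.0% lie in the top 10% of scores by construction, at a score of 391 or more. That top group held 147 distal CpG-rich peaks (23.4%, 20.2 to 26.8%), against 1188 other distal peaks (2.88%, 2.72 to 3.04%) and 3088 CpG-rich peaks near a start (41.0%). At the other end, 162 distal CpG-rich peaks (25.8%) scored below the list median of 111, against 58.5% of other distal peaks.

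The peaks were also wider, and score and width went together. The median width was 850 bp (quartiles 617 and 1149) for distal CpG-rich peaks, against 601 bp (580 and 722) for other distal peaks and 1024 bp for CpG-rich peaks near a start. Across the 629 regions the Spearman correlation of score with width was 0.876. Peaks of one library share its depth and one calling threshold, so this is a description only. Among peaks over 550 and up to 600 bp the median scores were 82.7 for distal CpG-rich and 83.8 for other distal peaks. Among peaks over 900 and up to 1200 bp they were 281 for distal CpG-rich and 247 for other distal peaks, and among those over 1200 and up to 1800 bp they were 514 for distal CpG-rich and 377 for other distal peaks. Within a width class of 1200 bp or less the medians thus differed far less than over all peaks. The larger difference lay in the widths themselves: 282 distal CpG-rich peaks (44.8%) were wider than 900 bp, against 4736 other distal peaks (11.5%). GC content and CpG ratio beyond the thresholds followed the score little within the set (Spearman correlations of -0.0879 and -0.0133).

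**Figure D1:**
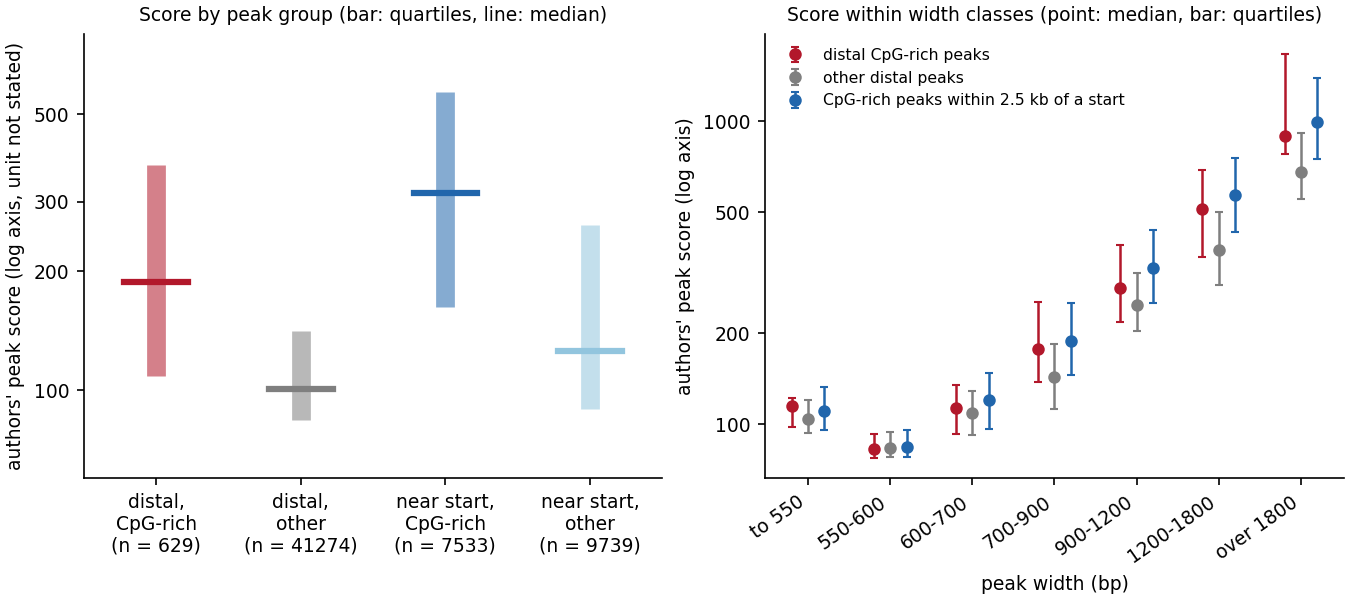
Left, the authors' peak score (log axis) of the 4 groups of peaks, with quartiles as bars and medians as lines; right, medians and quartiles of the score within classes of peak width (bp). The distal CpG-rich median of 188 lies between the 101 of other distal peaks and the 317 of CpG-rich peaks near a start, and within narrow width classes the groups lie close together.

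The thresholds of the choice cut through continuous values. Just beyond 2.5 kb from a start lay the peaks at Nkx1-2 (2507 bp, score 130), Nkx1-1 (2523 bp, 180) and Pou3f1 (2542 bp, 80.0), and just within it those at Hey1 (2498 bp, 349), Ddn (2477 bp, 166) and Auts2 (2470 bp, 302). Just above the GC threshold lay the peaks at Prss12 (55.02%, score 401) and Slc19a2 (55.03%, 131), and just below it those at Scnn1a (54.98%, 184), Ebf1 (54.97%, 257) and Ccdc115 (54.95%, 76.2). Just above the CpG threshold lay the peaks at Tle2 (0.6002, score 188), Socs3 (0.6009, 310) and Scn8a (0.6017, 164), and just below it those at Hsp90b1 (0.5997, 190), Vrk1 (0.5996, 134) and Irf2bpl (0.5990, 109).

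Many of these regions, though far from a protein-coding start, lay at the start of another kind of transcript. A noncoding transcript start lay within 1 kb of 200 distal CpG-rich peaks (31.8%, 28.3 to 35.5%), against 1649 other distal peaks (4.0%, 3.81 to 4.19%). Among CpG-rich peaks near a protein-coding start the share was 16.5%. For lncRNA genes alone the shares were 19.9% of distal CpG-rich peaks, 2.67% of other distal peaks and 14.7% of CpG-rich peaks near a start. In the same order they were 5.72%, 0.797% and 0.504% for pseudogenes, and 9.38%, 0.642% and 1.69% for small RNA genes. Copies of 1 locus enter the small RNA share, since 24 distal CpG-rich peaks lay in the 5S ribosomal RNA cluster described below. Without peaks over rRNA and tRNA genes the noncoding share of the set was 28.6%. A coding exon was touched by 176 distal CpG-rich peaks (28.0%, 24.6 to 31.6%), against 6.11% of other distal peaks and 63.9% of CpG-rich peaks near a start. Introns held the midpoints of 23.4% of distal CpG-rich and 52.2% of other distal peaks. Intergenic sequence held 38.5% of distal CpG-rich and 41.5% of other distal midpoints. No annotated start of any kind, in GENCODE or among RefSeq mRNAs, lay within 1 kb of 342 distal CpG-rich peaks (54.4%), against 93.0% of other distal peaks. Of those 342, 222 (35.3% of the set) touched no coding exon either, and their median score was 154.

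Each distal CpG-rich peak was then put in 1 class, in the order structural or small RNA gene under the peak, microRNA gene under the peak, lncRNA start, pseudogene start, other start of a protein-coding gene, coding exon, other exon or untranslated region, intron, and intergenic. Intergenic sequence was the largest class with 158 peaks, followed by coding exons with 120, lncRNA starts with 113 and other starts of protein-coding genes with 88. Structural or small RNA genes had 44, introns 48, pseudogene starts 32, and microRNA genes and other exons 13 each. The classes of RNA genes were drawn up after scores of these peaks had been seen. Median scores ran from 114 at pseudogene starts and 136 at other exons, over 151 in introns, 172 in intergenic sequence and 204 at structural or small RNA genes and 206 in coding exons, to 231 at other starts of protein-coding genes, 253 at lncRNA starts and 289 at microRNA genes. The spread within a class differed: at lncRNA starts the quartiles were 123 and 558, and in intergenic sequence 107 and 326. They lay closer together at pseudogene starts (92.1 and 169) and in introns (97.4 and 226).

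**Figure D2:**
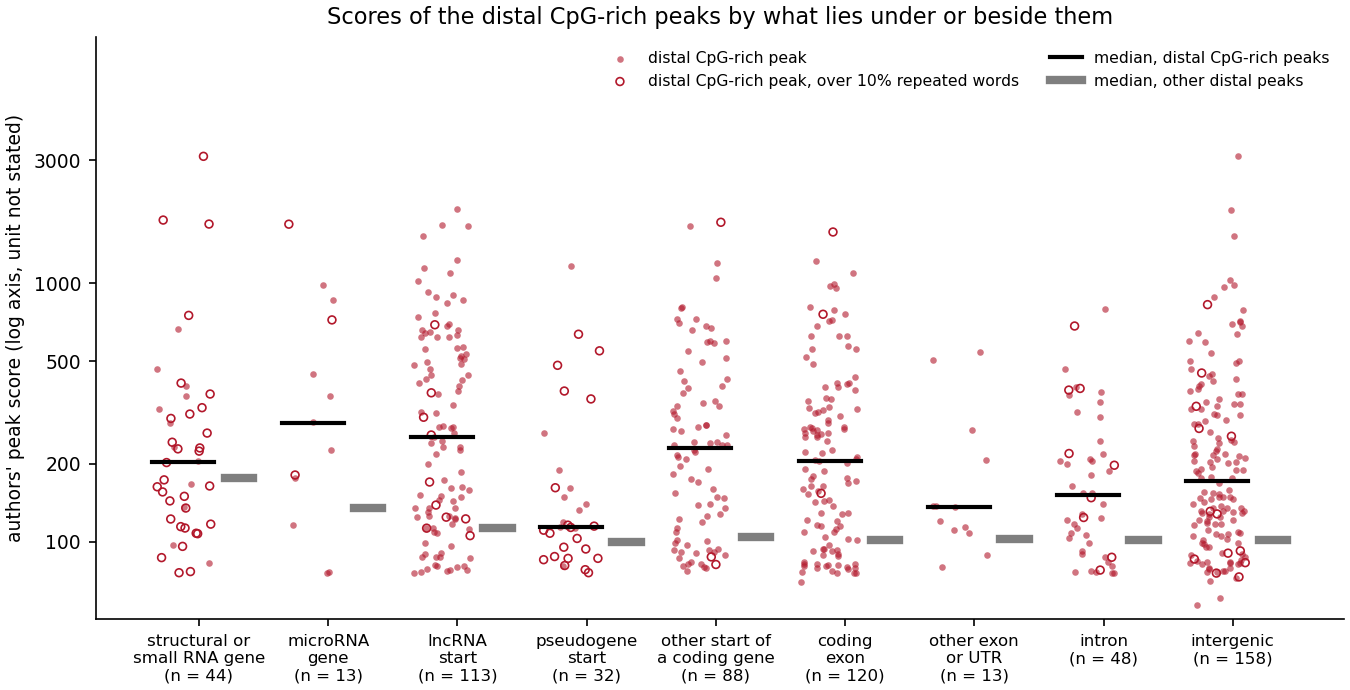
The authors' peak score (log axis) of each of the 629 distal CpG-rich peaks by annotation class, with black lines at class medians and grey lines at the medians of other distal peaks of the same class; open circles are peaks in which over 10% of 32-base words recur in the genome. Medians run from 114 at pseudogene starts to 289 at microRNA genes, and open circles crowd in the structural RNA and pseudogene classes.

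The lncRNA class held some of the highest scores. The peak at the start of Dleu2, the host transcript of the microRNAs miR-15a and miR-16-1, scored 1945 over 2081 bp (chr14:61681606-61683686), with its midpoint 273 bp from the start. A second peak, 5 bp from another annotated Dleu2 start, scored 326. Peaks at Tmem250-ps (1666, 84 bp from the start) and E130102H24Rik (1523, 231 bp) followed. At Tmem250-ps a curated RefSeq mRNA also starts 69 bp from the midpoint. Among the 113 peaks of the class, 43 were in the top 10% of scores, against 84 of the 1077 other distal peaks at lncRNA starts. Several of these lncRNAs start upstream of or inside genes with known roles. Gm20109 starts 184 bp from a peak scoring 1142, which lay 5440 bp upstream of Fkbp5, an immunophilin gene induced by glucocorticoids. The peak 466 bp from the start of 2410080I02Rik scored 883 and lay 5860 bp upstream of Klf9, a transcription factor gene that also responds to glucocorticoids. The peak 81 bp from the start of 2900072N19Rik scored 836 and lay 33829 bp upstream of Phf21a, which encodes the LSD1 complex subunit BHC80. A peak 603 bp from the start of Gm38708 scored 569 and lay 3813 bp upstream of Gata2, a gene of the GATA transcription factor family. Dexamethasone was part of the medium of both libraries, so no comparison without it can be made.

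Some of the starts were protein-coding after all, depending on the annotation. A RefSeq mRNA start lay within 1 kb of 72 distal CpG-rich peaks (11.4%, 9.19 to 14.2%), against 535 other distal peaks (1.30%). Of the 72, 22 were curated and 50 predicted mRNAs, and their median score was 266. Some of the curated ones, such as those at Tmem250-ps and Spata5l1, lay at peaks put in the lncRNA class. The peak at Zswim6, which encodes a zinc finger protein, scored 1675 over 2527 bp (chr13:107889611-107892137). GENCODE M21 held only a noncoding start there, whereas a curated RefSeq mRNA starts 810 bp from the midpoint. Curated RefSeq starts also lay near the peaks at B3galt1 (score 1051, 386 bp), a galactosyltransferase gene, at Pdzd2 (726, 22 bp), which encodes a PDZ domain protein, and at Arhgap32 (685, 356 bp), a gene for a GTPase-activating protein. Starts of noncoding isoforms of protein-coding genes lay within 1 kb of 70 distal CpG-rich peaks (11.1%), against 2.21% of other distal peaks. Among them were peaks at Catspere2 (1722, 42 bp), Kank3 (1201, 16 bp), Iqsec1 (810, 32 bp) and Cdh23 (803, 281 bp). At Catspere2, 53.5% of the words of the peak were repeated. The peak 3562 bp inside Kdm6b, which encodes the histone H3 lysine 27 demethylase JMJD3, scored 1667 over 3696 bp, and a predicted RefSeq start lies 484 bp from its midpoint. Leaving out every peak within 2.5 kb of a RefSeq mRNA start leaves 535 regions with a median score of 180.

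RNA genes made up the most repeated part of the set. Ribosomal RNA genes lay under 26 distal CpG-rich peaks. One of these covered CT010467.1 and Gm42418, entries of the ribosomal RNA locus on chromosome 17. At 6536 bp it was the widest region of the set. Its score of 3100 was the highest of the set, which 33 peaks of the list share and 1 peak outside the set exceeds. Of its words, 17.4% were repeated within the assembly, and any gene copies missing from the assembly do not enter this share. Whether reads from such copies added to the score was not tested for this peak. A further 1 lay just beyond and 24 inside the 5S ribosomal RNA cluster on chromosome 8, which encodes a small RNA of the large ribosomal subunit in 50 tandem genes of 119 bp, 1 about every 1697 bp, over 83.3 kb (chr8:123538786-123622046). Those 24 peaks covered 24 of the 50 genes (48.0%), and with 9 further distal peaks that fell outside the CpG or GC limit, 31 genes lay under a peak. Scores in the cluster ran from 76.5 to 373 with a median of 159, and none of the 24 reached the top 10% of the list. All 24 had between 87.4% and 100% repeated words, so a read from one gene copy could map to several, and the part of this in the scores was not tested. The copies lie in the annotated span of Gm20388, a readthrough gene, which for this reason had the most distal CpG-rich peaks of any gene, 27.

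**Figure D3:**
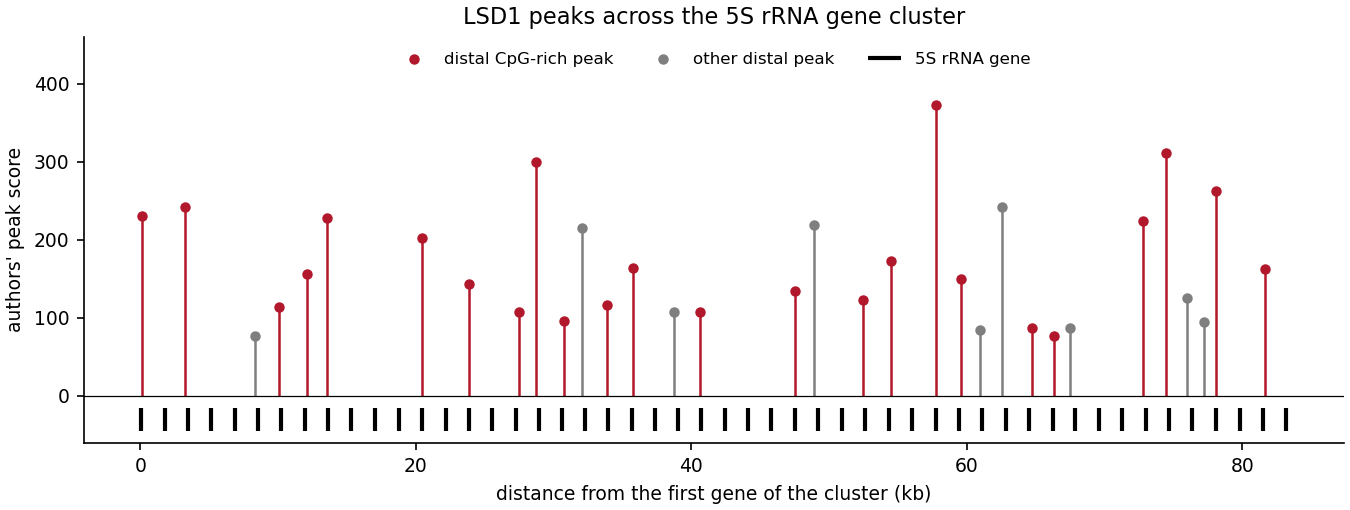
Scores of the 33 LSD1 peaks (vertical lines with points) along the 5S ribosomal RNA gene cluster, by distance in kb from its first gene; black ticks mark the 50 genes. The 24 distal CpG-rich peaks, scoring 76.5 to 373, are spread over the whole cluster among 9 other distal peaks.

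Transfer RNA genes are short and carry their promoter inside the transcribed sequence. Of 403 annotated tRNA genes, 156 (38.7%, 34.1 to 43.6%) lay under an LSD1 peak of any kind, against 3.33% of small nuclear RNA genes, 3.27% of small nucleolar RNA genes and 8.67% of microRNA genes. Most of these peaks were distal and not CpG-rich (80 peaks, median score 225). The 9 distal CpG-rich peaks over tRNA genes covered 17 genes and had a median score of 411 and a range from 136 to 1757. The highest, scores 1757 and 1695, lay side by side on chromosome 1 near Fcgr3, each over 5 tRNA genes that include the glutamate tRNA genes n-TEctc7 and n-TEctc8. They were 4651 and 4628 bp wide, and 92.9% and 90.5% of their words were repeated. In sequence with few repeats, n-TRtct2 had a score of 665, n-TNgtt14 of 367, n-TPtgg8 of 233, n-TTcgt5 of 168 and n-TPcgg2 of 136. The proline tRNA gene n-TPcgg2 thus had the lowest score of the 9 peaks. The midpoint of the n-TRtct2 peak lay 107 bp from the start of the lncRNA Gm17494 and 309 bp from a noncoding isoform start of Bcar3. RNA genes came first in the order of classes, and which of these the score belongs to was not tested.

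Other small RNA genes were few. The 3 peaks over small nucleolar RNA genes lay within 223 bp of lncRNA starts, those of Dancr (score 465, over Snora26), Snhg8 (401, over Snora24) and Epb41l4aos (288, over Gm23639). Terc, which encodes the RNA component of telomerase, had a peak of 96.6 with 2.07% repeated words. MicroRNA genes were the first class for 13 peaks, led by the predicted gene Gm23935 in an intron of Zc3h7a (1693), with 52.7% repeated words. Mir212 followed with 983 and no repeated words, 3794 bp upstream of Hic1, a transcriptional repressor gene. Mir129-2 had a score of 447, Mir203, which is known from skin, of 366, and Mir137, known from neurons, of 116.

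Coding exons were the second largest class. The highest score was 1579 at Tchh, which encodes the hair follicle protein trichohyalin and is built of internal repeats. A second Tchh peak scored 759, and 21% and 19.8% of the words in its peaks recur. Nova2, a neuronal splicing factor gene, came after the first of these with 1219 over 1344 bp (chr7:18957209-18958552), and Unc13a, which primes synaptic vesicles for release, with 1099. The peak in Snx20, a sorting nexin gene, scored 978 (chr8:88626699-88628302). Repeated words above 10% were rare in this class, in 3 of 120 peaks. Coding exons are themselves rich in GC, and in the set the class had a median GC content of 63.5%. Peaks inside a host gene were most often found toward its 3′ end: of 252 distal CpG-rich peaks in a protein-coding gene, without the 27 in Gm20388, 92 (36.5%) lay in the last 20% of the gene's length and 44 (17.5%) in the first 20%. Of 20681 other distal peaks in a gene, 19.2% lay in the last 20% and 18.8% in the first 20%. Peaks near starts had been removed by the choice in both sets, and a fixed distance takes up a larger part of a short gene. The lengths of the host genes were not compared, so position was not separated from gene length.

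Intergenic peaks included the other of the 2 regions with the set's highest score of 3100, with 0.844% repeated words, 15951 bp upstream of Cldn9, which encodes a tight junction claudin (chr17:23699014-23700939, 1926 bp, CpG ratio 0.80, sequence above). Next came a region 57105 bp upstream of Arid1a, a gene for a subunit of the BAF chromatin remodelling complex (score 1926). Its midpoint lies 1271 bp from a predicted RefSeq start, Gm34296. A 3101 bp region 2621 bp upstream of Ccnd1, the cyclin D1 gene, scored 1529. Upstream of Cbx8, a Polycomb group gene, 4 separate distal CpG-rich peaks scored 1025, 224, 98.8 and 89.2 at 13641, 15706, 7004 and 4096 bp. A region scoring 884 on chromosome 5, whose nearest GENCODE protein-coding start is that of Dhx15 at 76273 bp, lies 1240 bp from a predicted RefSeq start of Ppargc1a, the gene of the thermogenic coactivator PGC-1α. In introns the highest scores in sequence with few repeats were 795, 27523 bp upstream of Jak1, a cytokine receptor kinase gene, and 464 in Slc2a3, a glucose transporter gene. Among other exons they were 542 at Cx3cr1, the fractalkine receptor gene, and 506 at a position 109138 bp upstream of Jun.

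Pseudogene starts were the lowest-scoring class and were often repeated. In 21 of 32 peaks (65.6%) more than 10% of the words recurred, against 36.8% of other distal peaks at pseudogene starts. The exception at the top was B330016D10Rik, 7792 bp upstream of Spen, a transcriptional corepressor gene, with a score of 1166 and no repeated words. Over the whole set 94 peaks (14.9%, 12.4 to 17.9%) had more than 10% repeated words, against 11.5% of other distal peaks and 3.70% of CpG-rich peaks near a start. Of the 94, 32 were among the 44 peaks of the structural or small RNA class, which holds the 5S cluster. The share masked as interspersed or simple repeat in the assembly ran the other way, with a median of 6.21% in distal CpG-rich and 13.2% in other distal peaks. Among the genes with the most such peaks, the 3 peaks assigned to Asap2 and 2 of the 4 assigned to BC107364 were mostly repeated words. The 3 at Sptbn4 (153, 176 and 573) and the 3 at Ebf3 (356, 117 and 102) had none.

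Gene lists were read by counts alone. Each peak was assigned to its host gene or else to the gene of the nearest protein-coding start, and lists stand for genes, so a peak of a list need not act on that gene. Over all 21829 protein-coding gene symbols, 547 (2.51%) had a distal CpG-rich peak and 10656 (48.8%) another distal peak. Genes differ in the length of sequence assigned to them, and the counts were not adjusted for it.

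Developmental transcription factor genes of the homeobox, Pax, Tbx, Sox, Gata and forkhead families had 30 of the 629 peaks (4.77%), against 433 of the other distal peaks (1.05%). Of the 135 genes on the list, 97 (71.9%) had another distal peak, against 48.8% of all protein-coding genes. The 30 peaks lay at 27 of the 135 (20.0%), against 2.51% of all protein-coding genes. Their median score was 146, below the 188 of the whole set. The highest was 964 at a 2045 bp region 19574 bp upstream of Pax3, a neural crest and muscle progenitor factor, with a second Pax3 peak of 317 in an intron. Gata2 (569), Foxa1 (398) and Gata4 (386) followed, and the lowest was Meis1 (60.3). Coding exons held 9 of the 30, among them Foxa1, Evx1 (263), Lhx6 (253), Lhx5 (221) and Tbx1 (121).

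Wnt, TGF-beta and BMP pathway genes had 12 of the 629 peaks (1.91%), against 319 of the other distal peaks (0.773%). Of the 44 genes on the list, 40 (90.9%) had another distal peak, against 48.8% of all protein-coding genes. The 12 peaks lay at 10 of the 44 (22.7%), against 2.51% of all protein-coding genes. Ligand genes had most of them: Wnt7b had 788 at 52420 bp upstream and 147 at 43309 bp, Bmp4 465 and 115, Wnt6 277 and Wnt11 233, the last over the tRNA gene n-TPtgg8. Among the intracellular effectors were Smad7, an inhibitor of TGF-beta signalling (697), Smad2 (184) and Lef1 (101). Among LSD1, CoREST and corepressor genes 3 of 34 (8.82%) had a distal CpG-rich peak, against 2.51% of all protein-coding genes. They were Phf21a (836), Gfi1 (330), whose product recruits LSD1, and Tle3 (128). The list held 0.477% of distal CpG-rich and 0.477% of other distal peaks. Among circadian and glucocorticoid response genes 3 of 29 (10.3%) had one, Fkbp5 (1142), Klf9 (883) and Hlf (109). That list held 0.477% of distal CpG-rich and 0.468% of other distal peaks, so by share of peaks neither list stood apart.

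Gene lists of fat cells and other cell types held small numbers of these regions, to be set beside the 2.51% of all protein-coding genes with one. Of 26 brown fat thermogenic genes, 1 (3.85%) had a distal CpG-rich peak, Ppara (128), a nuclear receptor gene of fatty acid oxidation, while 20 had another distal peak. The count follows the assignment to GENCODE genes: Ppargc1a is on the list, and 2 peaks near its predicted RefSeq starts, scoring 884 and 459 at 1240 and 130 bp, were assigned to Dhx15. None of 30 lipid storage, lipogenesis and lipolysis genes and none of 34 collagen and matrix genes had one, and 20 and 32 of them had another distal peak. In lists of this size a share of 2.51% is less than 1 gene, so these counts do not set the lists apart from all genes. Of 25 adipogenic transcription factor genes, 4 (16%) had 7 distal CpG-rich peaks, Ebf3, Nr2f2 (199 and 89.5), Zfp423 (181) and Klf4 (76.0), while 22 had another distal peak. Of 26 insulin signalling genes, Insr (205) and Irs1 (99.1) had one (7.69%). Of 26 imprinted genes matched, 3 did: Igf2r (123), in its intron 882 bp from the start of the antisense RNA Airn, Dio3 (76.8) and Gnas (82.2). Of 20 macrophage and leukocyte markers, Cx3cr1 (542) and Spi1 (96.7) had one, and of 25 neuronal genes Cacna1a (545) and Dlgap1 (93.8).

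Most distal CpG-rich sequence carried no LSD1 peak at all. A scan of the genome in 500 bp windows for the same GC content and CpG ratio gave 8966 distal segments, of which 1363 (15.2%, 14.5 to 16%) overlapped a peak. Segments within 2.5 kb of a protein-coding start overlapped one in 76.9% of 13411 cases. Of all distal 700 bp stretches of the genome, 2.29% of 3571508 did. Of the distal CpG-rich peaks, 618 (98.3%) overlapped such a segment. The distal segments without a peak were mostly repeats: their median masked share was 86.2%, against 6.57% in those with one. Of 4606 segments that were more than 50% masked, 1.04% had a peak, whereas 31.8% of the 3996 segments masked to 25% or less did. How far read mapping in repeats set the first of these shares was not tested.

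Among the distal segments masked to 25% or less, the share with a peak went up with CpG density. It was 26.7% at CpG ratios of 0.6 to 0.7, 43.2% at 0.7 to 0.8, 55.7% at 0.8 to 0.9 and 67% above 0.9. Near starts the same steps gave 66.5%, 82.3%, 88.6% and 91.2%, so distal segments stayed below those near a start at each step. Median segment length went up over the same steps, from 700 to 1150 bp in distal segments and from 900 to 1500 bp near starts. At each step the segments near starts were the longer ones, and length and CpG ratio were not separated. Over all distal segments, at any masked share, the share with a peak also went up with length. It was 7.15% of those up to 600 bp, 29.6% of those over 1000 and up to 1500 bp and 49.5% of the longest class. The median masked share fell over the same classes, from 79.8% to 13.1% and 9.68%, so length and masking were not separated. Longer segments offer more bases to overlap a peak. By annotation, the share among segments masked to 25% or less was 70.9% at structural or small RNA genes, 52.9% at microRNA genes, 49.9% at lncRNA starts, 41.4% in intergenic sequence, 36.8% at other starts of protein-coding genes and 33.4% in introns. It was 17.8% in coding exons and 16.3% at pseudogene starts, whose intervals (15.7 to 20.0% and 13.0 to 20.3%) lay below those of the other named classes. On chromosome X 12.7% (7.73 to 20.2%) of the 110 such segments had a peak, against 32.4% (31.0 to 33.9%) of the 3868 on chromosomes 1 to 19. Segments near starts and masked to 25% or less also had a lower share on chromosome X, 28.6% against 78.8%.

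**Figure D4:**
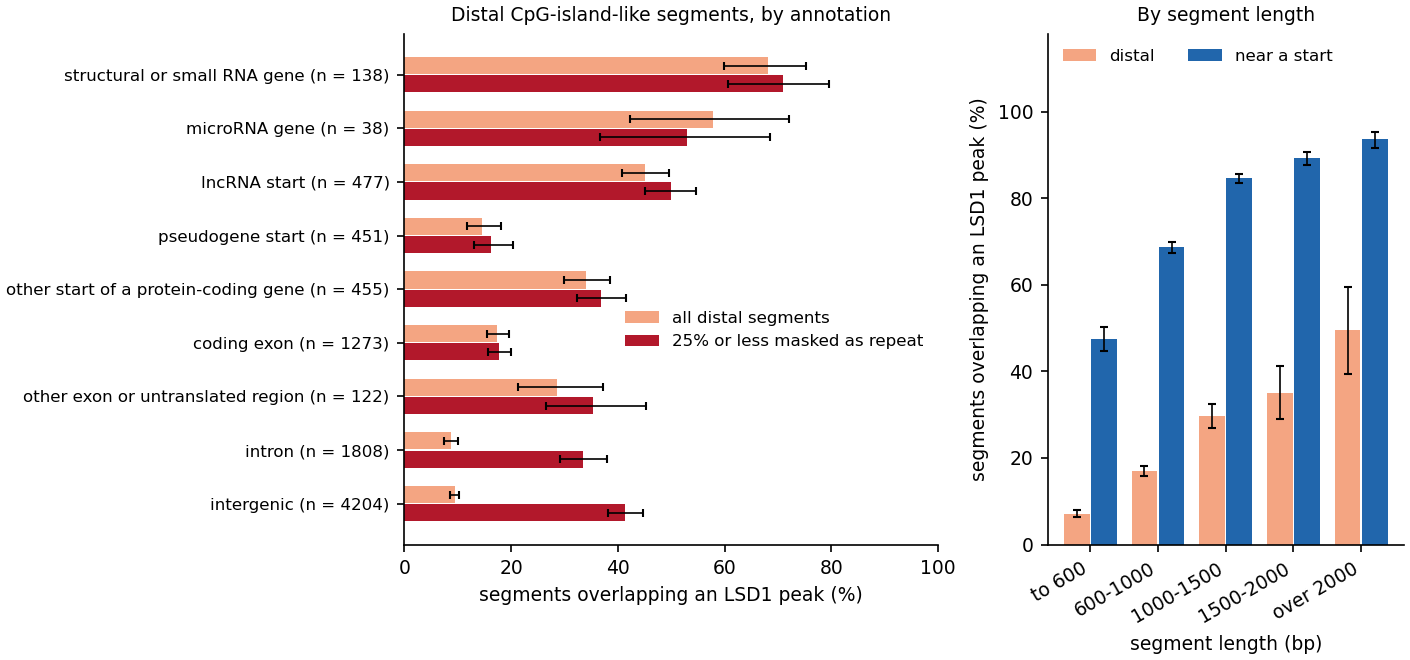
Share (%) of CpG-island-like segments that overlap an LSD1 peak, with 95% Wilson intervals. Left, distal segments by annotation, all and with 25% or less masked as repeat. Right, distal segments and segments near a start by length (bp), at any masked share. Among intergenic segments 41.4% of those with 25% or less masked have a peak, against 9.42% of all, and segments near a start lie above distal ones at every length.

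Chromosome X had 9 distal CpG-rich peaks, 3.30% of its 273 peaks, against 1.06% in the whole list. It held 1.43% of distal CpG-rich peaks and 1.04% of CpG-rich peaks near a start, against 0.461% of all peaks. All 9 distal CpG-rich peaks on chromosome X scored from 80.8 to 154, below the set median of 188 but some above the list median of 111. They included 2 peaks in Bcor (124 and 87.6), the gene of a BCL6 corepressor, 1 near Bcorl1 (132) and 1 at 84 bp from the start of Ftx (98.7), a lncRNA of the X inactivation centre. The labels do not give the sex of the animals.

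Distal CpG-rich peaks were spread thinly over the genome. Another such peak lay within 10 kb of 91 of them (14.5%), the 5S cluster included, and the median gap to the nearest other one was 575958 bp. The distance to the nearest protein-coding start had a median of 14956 bp (quartiles 5331 and 40706), against 29582 bp for other distal peaks. The median score changed little with distance, from 175 at 2.5 to 5 kb to 177 at 50 to 100 kb and 227 in the 41 peaks beyond 100 kb. The gene assigned to a distal CpG-rich peak had a peak within 1 kb of one of its own protein-coding starts in 447 of 629 cases (71.1%, 67.4 to 74.5%), against 79.2% of the cases for other distal peaks. Of all protein-coding gene symbols, each counted once, 55.8% had such a peak. The other 2 shares count a gene once for each peak assigned to it, so they cannot be set directly beside this one.

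At the peak centres the GC box, ETS and AP-1 words had shares nearer to those of CpG-rich peaks near a start than to those of other distal peaks. Words of 16 motifs were searched on both strands in the central 200 bp. The GC box GGGCGG, read by SP and KLF factors, stood in 49.6% of distal CpG-rich peaks, against 4.32% of other distal peaks, 56.6% of CpG-rich peaks near a start and 13.5% of all peaks. It stood in 28.4% of the distal segments that were masked to 25% or less and had no peak. The ETS core CCGGAA was in 15.3% of distal CpG-rich peaks, against 2.70% of other distal peaks, 9.06% of such segments without a peak and 5.53% of all peaks. The E-box CACGTG was in 6.68%, against 2.58% of other distal peaks and 3.16% of all peaks, but in 6.82% of segments without a peak. GC content and CpG density were part of the choice, and each of these words holds a CpG. A word match is a description, not a site.

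The AP-1, C/EBP, receptor, TEAD and CCAAT words, which hold no fixed CpG, went the other way. The AP-1 word TGANTCA stood in 2.23% of distal CpG-rich peaks, against 11.2% of other distal peaks and 9.11% of all peaks. The C/EBP word TTGCNNAA stood in 3.82%, against 9.82% of other distal peaks and 8.60% of all peaks. The glucocorticoid receptor word AGAACA stood in 5.72%, against 17.5% of other distal peaks and 15.1% of all peaks. The nuclear receptor word AGGTCA stood in 5.41%, against 13.7% of other distal and 12.3% of all peaks, and the TEAD word GGAATG in 5.72%, against 13.5% of other distal and 11.9% of all peaks. The CCAAT box CCAAT stood in 12.2%, against 24.0% of other distal and 23.1% of all peaks. Distal segments without a peak and masked to 25% or less had shares of 1.80% for AP-1, 4.80% for C/EBP and 8.98% for the nuclear receptor word. In the same segments the next 3 words had shares of 2.38% for NRF1, 0.660% for YY1 and 5.28% for TGACGT, the last above its share in distal CpG-rich peaks. The NRF1 word GCATGCG stood in 3.18% of distal CpG-rich, 0.855% of other distal and 1.37% of all peaks. The YY1 word AAGATGGC stood in 1.91% of distal CpG-rich, 1.13% of other distal and 1.34% of all peaks. TGACGT, a part of the cAMP response element word TGACGTCA, stood in 3.82% of distal CpG-rich, 1.99% of other distal and 2.69% of all peaks. TGACGTCA itself and the longer consensus words of CTCF, EBF and NFI were each in under 1% of distal CpG-rich peaks, with shares between 0.477% and 0.795%.

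**Figure D5:**
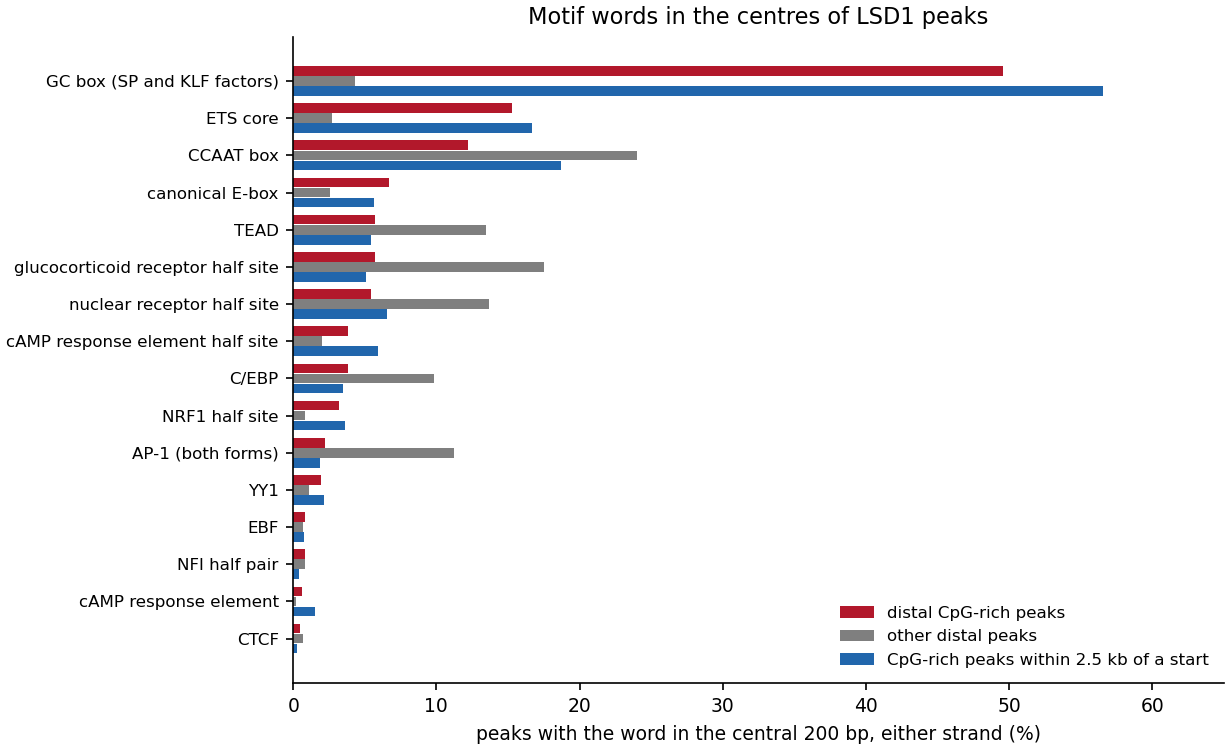
Share (%) of peaks with each motif word in the central 200 bp on either strand, for distal CpG-rich peaks, other distal peaks and CpG-rich peaks within 2.5 kb of a start. The GC box stands in 49.6% of distal CpG-rich peaks and 4.32% of other distal peaks, and the AP-1 word in 2.23% of distal CpG-rich and 11.2% of other distal peaks.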

How the data were processed

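LSD1 chromatin immunoprecipitation and an input library were sequenced from differentiated primary brown adipocytes, 1 library each. Per the labels, mapping was to mm10 by Bowtie2, and the submitters' processing notes name MACS 1.41. Settings and the role of the input were not stated there. The deposited list gives a score for each peak, made by the authors on an unstated scale. The list was used as deposited.

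Peak sequence was read from GRCm38.p6, whose chromosomes are those of mm10, and starts from GENCODE M21 (54329 protein-coding start positions) and 84748 RefSeq mRNAs. Observed over expected CpG is the CpG count times length over the product of C and G counts. Repeated words are 32-base words, either strand, found more than once in the assembled genome. CpG-island-like segments are merged 500 bp windows, in 100 bp steps, with GC of at least 55% and a CpG ratio of at least 0.6, and an overlap was 1 bp or more. Masked bases are the lower-case letters of the RefSeq sequence. Computation used Python 3.11.15, numpy 2.4.6, pandas 2.3.3, scipy 1.17.1, numba 0.67.0 and matplotlib 3.10.9, and was tested on simulated data. Shares carry 95% Wilson intervals. Both libraries form 1 group each, and only the list of the LSD1 library was analysed.

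Named peaks were the 10 highest-scoring, the 3 highest of each annotation class, the highest with a lncRNA, pseudogene or small RNA start, the 2 highest of each of 12 gene lists (454 of 462 entries matched), the 5 genes with the most peaks, the 3 on each side of each threshold and the 2 widest, of which some are not reported here. Further peaks, such as other entries of the gene lists, RNA genes, peaks at RefSeq starts and those on chromosome X, were named after their values were seen. The regions and lists were chosen with earlier results of these data known. Alternatives covered distance, GC and CpG limits, score limits, repeated words and overlap rules, with 2 added after seeing the data, which left out peaks near RefSeq mRNA starts and peaks over rRNA and tRNA genes.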

Additional observations from a re-analysis of the deposited data

How the results depend on the processing

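Of 87 values recomputed under alternatives, 49 stayed within the 95% interval of the value reported (for the number of regions, within 1.5 times) and 38 moved beyond it. The number of regions, 629, became 955 with starts over 1 kb away, 365 over 10 kb, 395 at a GC content of 60% or more, 282 at a CpG ratio of 0.75 or more and 147 in the top 10% of scores. The median score of 188 and median width of 850 bp became 222 and 908 bp when the central 500 bp were measured, 263 and 961 bp at or above the list median, and 635 and 1414 bp in the top 10%, values that the limits on score themselves set. The share with a noncoding start within 1 kb, 31.8%, became 26%, 38.5% and 43.8% with protein-coding starts over 1, 5 and 10 kb away, 36.2% at the higher CpG ratio, 40.1% in the top 10%, 25.2% with repeated words in 10% or less, 27.8% with the start under the peak and 37.2% within 2.5 kb. The share touching a coding exon, 28.0%, became 38.6%, 19.8% and 13.7% with starts over 1, 5 and 10 kb away, 33.4% and 23.3% at GC contents of 60% and 50%, 32.6% at the higher CpG ratio, 24.6% by the central 500 bp, 32.3% with few repeated words and 20.5% with the midpoint in the exon. The intergenic share, 38.5%, became 29.7%, 43.6% and 45.8% with starts over 1, 5 and 10 kb away and 31.6% at a GC content of 60%. The share of distal segments with a peak, 15.2%, became 10.0% with 300 bp windows, 18.2% at a GC content of 60%, 12.7% by midpoints, 11.4% and 3.65% with peaks at or above the list median and in the top 10%, and 13.5% with starts over 5 kb away. Where no construction of the alternative explains a move, the cause was not tested. The 2 alternatives chosen after seeing the data, without peaks near RefSeq mRNA starts and without peaks over rRNA and tRNA genes, left 535 and 594 regions with median scores of 180 and 188. No paired analysis was possible because there is 1 LSD1 library and 1 list. With no counts, weak peaks missed at this depth cannot be told from absent ones.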
